A study of Homo sapiens with 3 samples.

Results

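The genes described here encode the neuropeptides VIP, PACAP and somatostatin and their receptors, and were read in SH-SY5Y, an established human neuroblastoma cell line. They were chosen by name, as the rows of the deposited table whose Ensembl identifiers carry the symbols VIP, ADCYAP1, VIPR1, VIPR2, ADCYAP1R1, SST, SSTR1, SSTR2, SSTR3 and SSTR5 in GENCODE release 29, which gave 10 of the table's 60660 genes. The series holds 1 group of 3 libraries, replicates 1, 2 and 3, each of stranded mRNA from its own flask of cells, at about 60% confluency per the labels' protocols. The labels name no second line, genotype or treatment, so the comparisons are between genes within the same libraries and against a fixed level of 1 FPKM. FPKM, the deposited unit, is fragments per kilobase of transcript, scaled to each library's mapped fragments, and so lets genes of different length be compared. Errors are SDs over the 3 libraries (n = 3). All 3 flasks hold the same line, so p-values measure the spread between flasks only.

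VIP (vasoactive intestinal peptide) and PACAP (pituitary adenylate cyclase-activating polypeptide, from ADCYAP1) are related peptides of the secretin family, released by autonomic neurons and chromaffin cells along with classical transmitters. VIPR1 and VIPR2 encode the receptors VPAC1 and VPAC2, which bind both peptides, while ADCYAP1R1 encodes PAC1, which prefers PACAP; all are class B1 receptors that mainly couple to Gs and raise cAMP, and PAC1 also couples to Gq and phospholipase C. Somatostatin, from SST, acts through the SSTR family, receptors coupled to Gi/o that lower cAMP, open inwardly rectifying potassium channels and restrain secretion. SSTR2 is the usual target of somatostatin-analogue imaging in neuroendocrine tumours.

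Promoter stretches of 4 of these genes are shown for the cAMP response element, the site bound by CREB, because peptide genes of both systems, SST and VIP, are textbook cAMP-responsive genes. The sequences are from RefSeq, build GRCh38.p14, and run 5′ to 3′ on the gene's strand up to the base before the annotated start: VIP at chr6:152750547-152750796 (plus strand), SST at chr3:187670400-187670644 (minus strand), SSTR2 at chr17:73164760-73165009 (plus strand) and ADCYAP1R1 at chr7:31052058-31052307 (plus strand). The SST stretch leaves out the last 5 bases before that start, which lie inside the GENCODE gene. Starts and the distances to them are those of RefSeq and can differ from the GENCODE gene positions given below. For ADCYAP1R1 the stretch ends at 31052307, while the GENCODE gene begins at 31052461. Capitals mark TGACGTCA, the full palindromic element, or its core TGACG on either strand (CGTCA when read on the other strand).
VIP: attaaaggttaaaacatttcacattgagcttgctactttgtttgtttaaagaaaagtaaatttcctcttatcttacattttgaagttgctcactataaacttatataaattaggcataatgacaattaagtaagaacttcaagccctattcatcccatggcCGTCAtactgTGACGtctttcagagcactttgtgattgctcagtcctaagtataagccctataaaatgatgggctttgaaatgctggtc
SST: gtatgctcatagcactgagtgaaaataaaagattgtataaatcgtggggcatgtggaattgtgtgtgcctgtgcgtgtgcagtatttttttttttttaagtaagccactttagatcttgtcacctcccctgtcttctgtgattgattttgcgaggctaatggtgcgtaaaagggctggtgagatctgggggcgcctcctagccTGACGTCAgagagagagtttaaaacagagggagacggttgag
SSTR2: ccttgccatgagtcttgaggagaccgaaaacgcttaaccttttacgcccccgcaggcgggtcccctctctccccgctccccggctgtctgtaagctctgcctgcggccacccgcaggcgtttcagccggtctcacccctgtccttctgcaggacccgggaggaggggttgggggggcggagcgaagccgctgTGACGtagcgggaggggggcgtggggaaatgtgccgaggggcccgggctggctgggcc
ADCYAP1R1: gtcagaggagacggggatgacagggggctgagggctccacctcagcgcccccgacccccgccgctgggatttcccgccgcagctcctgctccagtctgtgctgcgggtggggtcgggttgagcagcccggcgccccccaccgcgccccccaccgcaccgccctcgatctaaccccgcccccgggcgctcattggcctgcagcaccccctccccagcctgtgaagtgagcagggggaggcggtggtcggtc

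The full element TGACGTCA was found in SST, where it begins 47 bases before the start, and in none of the other 9 genes. It occurs in 1.85% of all 35116 RefSeq promoter windows of 300 bases (250 before to 50 after the start). The core TGACG, which the full element also contains, occurs in 24.6% of all windows and in 6 of the 14 windows annotated for the 10 genes. In VIP there are 2 cores, on opposite strands, beginning 89 and 79 bases before the start. The single core of SSTR2 begins 58 bases before its start, and the ADCYAP1R1 window has none. The remaining cores begin 238 bases before a start of ADCYAP1, 75 before a start of VIPR1, and after the start of SSTR5. A match is a description of the letters, and its absence says nothing about CREB. The promoters with the highest transcript levels differed in composition: the VIP window was 37.3% G and C with 2 CpG dinucleotides, and the ADCYAP1R1 window 75.0% with 28, where the median window had 58.7% and 14.

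Transcripts of a PACAP receptor and of VIP stood far above the other genes of both systems. ADCYAP1R1 averaged 25.5 ± 1.29 FPKM and VIP 14.5 ± 2.35, while no other gene of the 10 reached 1 FPKM in any library. By limma's moderated test with Benjamini-Hochberg adjustment over all 31957 genes tested, 2 of the 10 were called above 1 FPKM and 5 below, and 3 were listed at 0 in every library and not tested. Among all genes tested, 45.2% were called above and 43.5% below. Among the 16754 protein-coding genes tested, the shares were 70.6% and 24.5%. These shares leave out genes listed at 0, while the count of 10 holds 3 such genes, so the 2 are not directly comparable. The median of the 10 genes, with those listed at 0, was 0.245 FPKM. Over the 19686 protein-coding genes in the table, 2929 of them listed at 0, it was 5.39. Over genes tested, which leaves out genes listed at 0, it was 1.08 for all and 9.13 for protein-coding genes.

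**Figure D1:**
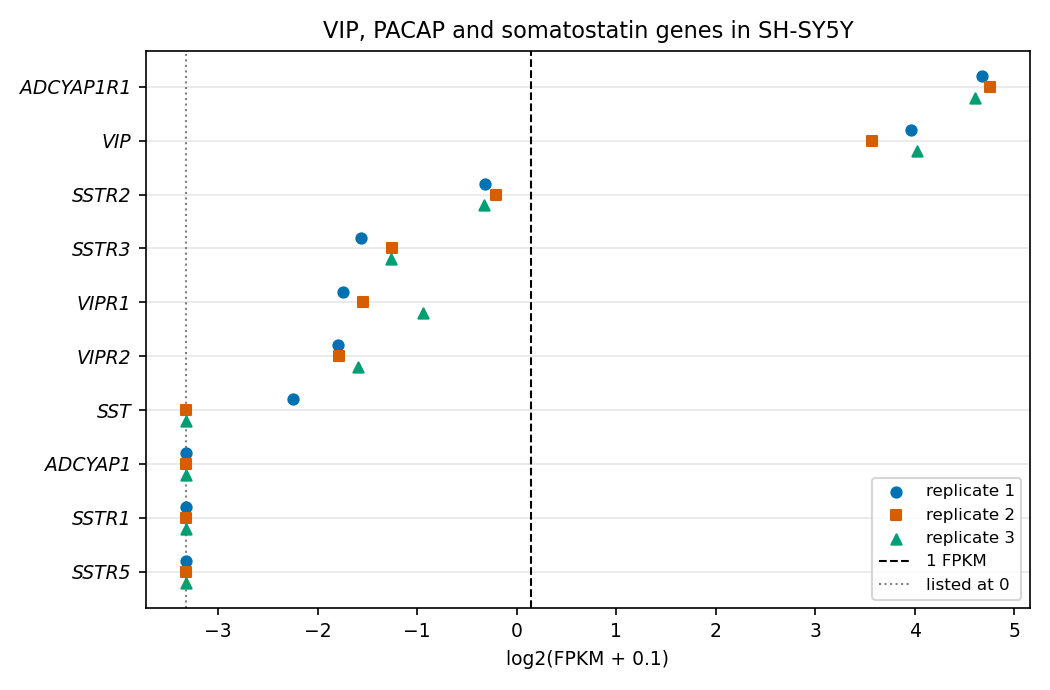
Level of each gene in each library, as log2(FPKM + 0.1), with points for replicates 1, 2 and 3, a dashed line at 1 FPKM and a dotted line where a gene is listed at 0. ADCYAP1R1 and VIP lie right of the dashed line in all 3 libraries, the 5 genes from SSTR2 to SST lie left of it, and ADCYAP1, SSTR1 and SSTR5 lie on the dotted line.

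Among the ligands, VIP (ENSG00000146469, chromosome 6, 152750798 to 152759765) stood at 15.417, 11.772 and 16.175 FPKM in replicates 1, 2 and 3. Replicate 2 was the lowest, and even it lay far above 0.763, the highest value of SSTR2, the next gene in order. Its log2 distance from 1 FPKM was 3.71 (SE 0.129, limma adjusted p = 0.000132), and 65.5% of protein-coding genes had a lower mean. VIP varied more between flasks than ADCYAP1R1, with a coefficient of variation of 16.3% against 5.08%.

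The PACAP gene ADCYAP1 (ENSG00000141433, chromosome 18, 904943 to 912172) was listed at 0 in all 3 libraries. A count of 0 allows up to 3 reads, which would have given 0.194, 0.146 and 0.0961 FPKM in replicates 1, 2 and 3 on its shortest coding transcript and 0.0443, 0.0334 and 0.0219 on its longest, so a level under these limits is not excluded at this depth. An exact 0 in an FPKM table can also be a failed estimate. The somatostatin gene SST (ENSG00000157005, chromosome 3, 187668906 to 187670399) stood at 0.111 FPKM in replicate 1 and was listed at 0 in replicates 2 and 3. With its single annotated transcript, the value in replicate 1 corresponds to 1.00 read. SST was called below 1 FPKM (log2 distance -3.10, SE 0.289, limma adjusted p = 0.00186), and without replicate 1 it has no value above 0 and leaves the test. So of the 3 ligand genes, VIP alone was called above 1 FPKM.

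The read numbers and floors rest on library depths estimated from the even steps of low FPKM values, about 21500000, 28500000 and 43500000 reads in replicates 1, 2 and 3. They assume a fragment length of 200 bases and cover counting error only.

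ADCYAP1R1 (ENSG00000078549, chromosome 7, 31052461 to 31111479), the gene of PAC1, was the highest of the 10, at 25.34, 26.802 and 24.223 FPKM. All 3 libraries lay above the highest VIP value of 16.175, and 76.6% of protein-coding genes had a lower mean. The log2 distance from 1 FPKM was 4.54 (SE 0.0724, limma adjusted p = 3.36e-05). The table gives a single value per gene, so the splice forms of PAC1, which differ in coupling, cannot be separated here.

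Both VPAC receptor genes were called below 1 FPKM. VIPR1 (ENSG00000114812, chromosome 3, 42489299 to 42537573) stood at 0.198, 0.242 and 0.422 FPKM, highest in replicate 3 by a factor of 2.13 over replicate 1 (log2 distance -1.55, SE 0.202, limma adjusted p = 0.0047). Its exons share 844 bases with those of VIPR1-AS1, transcribed from the opposite strand, at 0.232, 0.313 and 0.43 FPKM, in the same order of libraries. No source used here says whether reads were counted by strand, so the VIPR1 value is uncertain and reads of the pair cannot be told apart.

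VIPR2 (ENSG00000106018, chromosome 7, 159028175 to 159144957) stood at 0.187, 0.189 and 0.231 FPKM (log2 distance -1.87, SE 0.0832, limma adjusted p = 0.000252). Its overlapping partner LINC00689 on the other strand was near 0, with 0.00167 FPKM on average. How many reads stand behind VIPR2 depends on the transcript: 2.08, 2.79 and 5.20 in replicates 1, 2 and 3 on the shortest coding transcript, and 15.1, 20.2 and 37.6 on the longest. On the shortest, replicates 1 and 2 lie below 3 reads.

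Within libraries, ADCYAP1R1 exceeded VIPR1 by 6.09 ± 0.47 and VIPR2 by 6.40 ± 0.18 on the log2(FPKM + 0.1) scale, each in 3 of 3 libraries, with ratios of mean FPKM of 88.6 and 126. The ratio to VIPR1 was 128, 111 and 57.4 in replicates 1, 2 and 3, lowest where VIPR1 was highest. VIPR1 exceeded VIPR2 by 0.32 ± 0.31 in 3 of 3 libraries, a difference about as large as its spread, and their ranges overlapped; without replicate 3 it was 0.15. Flipping the signs of 3 library differences in an exact two-sided test cannot give a p below 0.25, which was the p of each of the 4 gene pairs tested, also after adjustment over the 4, so none passed the threshold.

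Somatostatin receptor transcripts were low throughout, with 0 of 4 genes called above 1 FPKM by limma, 2 below and 2 listed at 0. Among protein-coding genes tested, which leaves out genes listed at 0, 70.6% were called above and 24.5% below. The summed level of the 4 genes was 0.94 to 1.08 FPKM per library. At an unadjusted p under 0.05 the count above was 0 as well, since SSTR2 and SSTR3 both lay below the level in every library. SSTR2 (ENSG00000180616, chromosome 17, 73165012 to 73176633) was the highest of them, at 0.703, 0.763 and 0.694 FPKM, or 0.72 ± 0.0375. It was called below 1 FPKM (log2 distance -0.42, SE 0.0709, limma adjusted p = 0.00937), which did not hold when replicate 1 was left out (limma adjusted p = 0.0549) or when replicate 3 was (0.0715). Its coding transcript is 7683 bases long, so these low values still correspond to about 113, 163 and 226 reads. At a level of 0.5 FPKM, SSTR2 was called above (log2 distance 0.45, limma adjusted p = 0.00859).

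SSTR3 (ENSG00000278195, chromosome 22, 37204238 to 37212322) stood at 0.237, 0.318 and 0.317 FPKM (log2 distance -1.50, SE 0.103, limma adjusted p = 0.00081). SSTR2 exceeded it by 1.08 ± 0.16 on the log2(FPKM + 0.1) scale in 3 of 3 libraries, with mean levels 2.48-fold apart, and their ranges did not overlap (exact sign-flip p = 0.25). SSTR1 (ENSG00000139874, chromosome 14, 38207999 to 38213067) and SSTR5 (ENSG00000162009, chromosome 16, 1078781 to 1080142) were listed at 0 in every library. For SSTR1, 3 reads would have given 0.034, 0.0257 and 0.0168 FPKM in replicates 1, 2 and 3; for SSTR5, on a shorter transcript, 0.12, 0.0904 and 0.0594.

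**Figure D2:**
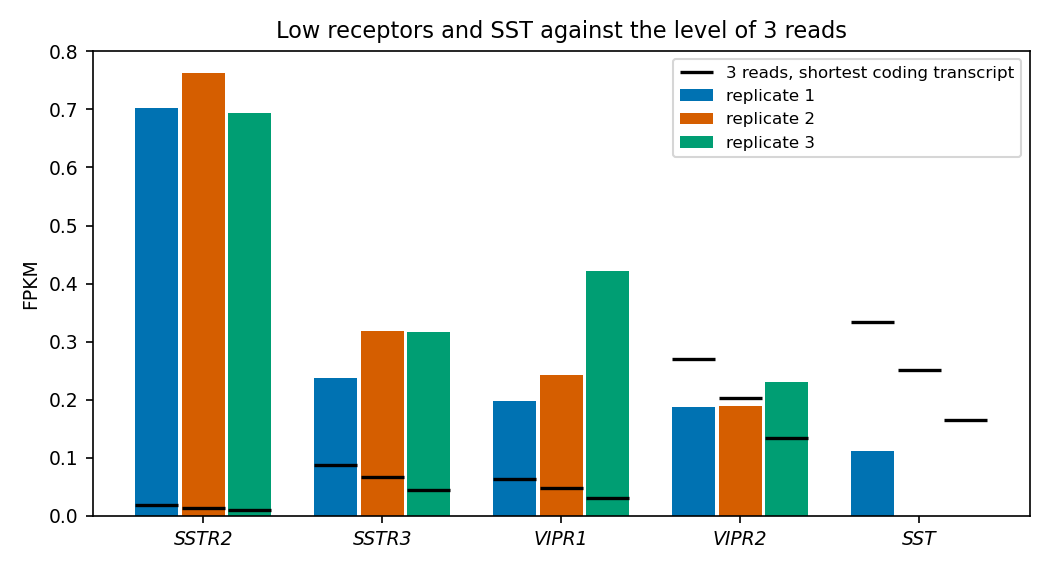
FPKM of SSTR2, SSTR3, VIPR1, VIPR2 and SST in each library (bars), with black ticks at the FPKM that 3 reads would give on the shortest coding transcript. SSTR2, SSTR3 and VIPR1 stand above the ticks in all 3 libraries, VIPR2 in replicate 3 only, and SST in none.

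In order of mean level, the genes with a value above 0 ran ADCYAP1R1, VIP, SSTR2, SSTR3, VIPR1, VIPR2 and SST. Adjacent genes did not overlap in range, except SSTR3 with VIPR1, whose means of 0.291 and 0.287 FPKM differed by less than their spread, and VIPR1 with VIPR2. The widest step was between VIP and SSTR2, a ratio of means of 20.1.

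Compared with its wider family, ADCYAP1R1 was the highest of the 15 class B1 receptor genes read. Of the other 12 beside the VIP and PACAP receptors, PTH2R alone was called above 1 FPKM and 7 were called below. The shares of protein-coding genes tested, without genes listed at 0, were 70.6% above and 24.5% below. PTH2R, a parathyroid hormone receptor gene, stood at 4.27 ± 0.603 FPKM (limma adjusted p = 0.000435). ADCYAP1R1 exceeded PTH2R by 2.55 ± 0.13 on the log2(FPKM + 0.1) scale in 3 of 3 libraries, with mean levels 5.96-fold apart.

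PTH1R (1.66 ± 0.862 FPKM), the corticotropin-releasing hormone receptor gene CRHR1 (1.55 ± 0.857) and the incretin receptor gene GIPR (1.41 ± 0.55) were called neither above nor below, and their SDs ranged from 0.55 to 0.862 FPKM. CRHR1 was lowest in replicate 3 (0.627) and was called above without it (limma adjusted p = 0.032). It shares 120 exonic bases with MAPT-AS1 on the other strand (0.894 FPKM), so its value is uncertain. CRHR2 (0.319), GLP1R (0.196), GCGR (0.135), GHRHR (0.0483), CALCR (0.0423), SCTR (0.0207) and CALCRL (0.0133) were called below on mean FPKM, and GLP2R was listed at 0. The accessory protein genes RAMP1 (17.4 ± 1.49 FPKM) and RAMP2 (13.3 ± 0.143), whose products pair with the receptors of CALCR and CALCRL and with some other class B1 receptors, were called above, and RAMP3 (0.892 ± 0.157) neither.

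Among close relatives of the somatostatin receptors, 3 of the opioid receptor genes stood above 1 FPKM. OPRM1, the mu opioid receptor gene, stood at 14.3 ± 0.942 FPKM, OPRL1, the nociceptin receptor gene, at 3.49 ± 0.199 and OPRD1, the delta receptor gene, at 2.09 ± 0.24. These 3 were called above 1 FPKM, of 9 genes in a list that also holds SSTR4 and has 3 genes listed at 0. Of protein-coding genes tested, which leaves out genes listed at 0, 70.6% were called above. OPRM1 exceeded SSTR2 by 4.13 ± 0.05 on the log2(FPKM + 0.1) scale in 3 of 3 libraries. MCHR1 (0.0577), OPRK1 (0.0143) and MCHR2 (0.007) were called below on mean FPKM. NPBWR1 and NPBWR2 were listed at 0, as was SSTR4, itself a somatostatin receptor gene. OPRD1 shares 520 exonic bases with AL009181.1 on the other strand (1.07 FPKM), so its value is uncertain.

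**Figure D3:**
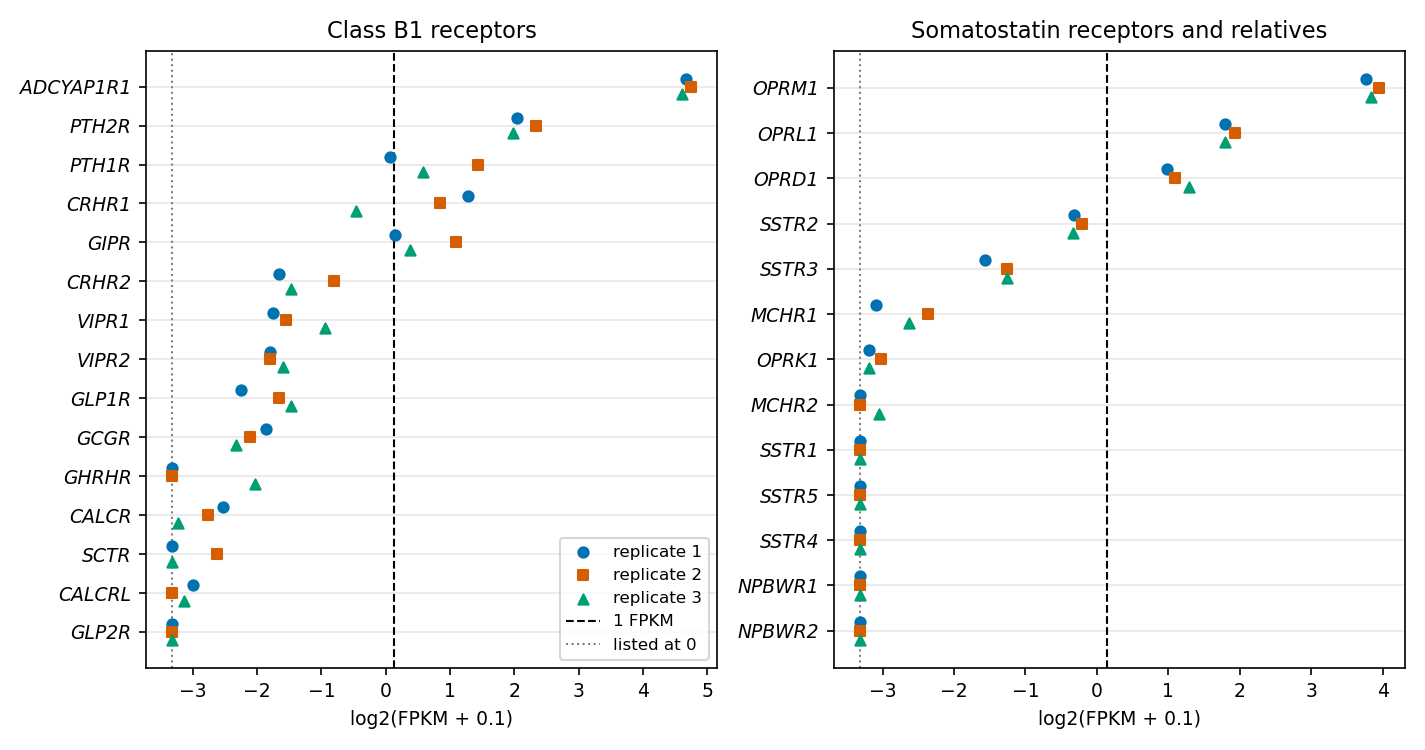
Levels as log2(FPKM + 0.1) in each library for 15 class B1 receptor genes (left) and for the somatostatin receptor genes with their relatives (right), ordered by mean; points mark replicates, the dashed line 1 FPKM and the dotted line genes listed at 0. ADCYAP1R1 tops the left panel, and on the right OPRM1, OPRL1 and OPRD1 stand above all somatostatin receptor genes.

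Other peptides for these receptor families were low as well. SCT, GHRH, GCG and GIP, the genes of secretin, growth hormone-releasing hormone, glucagon and the incretin GIP, were listed at 0. CORT, the gene of the somatostatin-like peptide cortistatin, was called below at 0.235 ± 0.0561 FPKM (limma adjusted p = 0.00103). It shares 526 exonic bases with the read-through gene CENPS-CORT on the same strand, which stood at 3.13 ± 0.174 FPKM, so how reads were split between them is uncertain.

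Downstream of the receptors, genes of the Gs and cAMP pathway were mostly called above 1 FPKM, 24 of 28 with 3 below (median 19.8 FPKM). Under rescaling to TPM 23 were above and 4 below. Of protein-coding genes tested, 70.6% were called above. GNAS, the gene of the stimulatory G protein alpha subunit, reached 1916 ± 68.6 FPKM, the protein kinase A regulatory subunit gene PRKAR1A 179 ± 9.7 and the CREB coactivator gene CRTC2 66.4 ± 12.6. All 9 genes of the Gq and phospholipase C list were called above (median 12.8 FPKM), and 7 of 9 under rescaling to TPM, led by GNA11 (39.4 ± 6.42), GNAQ (34.7 ± 2.53) and the phospholipase gene PLCB3 (19.9 ± 1.74). The call of PDE4A held in none of the fits that left out 1 library (limma adjusted p from 0.0675 to 0.174). Those of ITPR2, called above, and RAPGEF3, called below, did not hold without replicate 1 (limma adjusted p = 0.157 and 0.0559) or without replicate 2 (0.170 and 0.0814), and that of PLCB2 did not without replicate 2 (0.0891). ADCY7 and ITPR3 share exonic bases with the higher genes BRD7 (57.8 FPKM) and UQCC2 (105) on the other strand, so their values are uncertain. CREB1 had no value in replicate 3 and was tested on 2 libraries.

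On the inhibitory side, 6 of 9 genes of the Gi/o and potassium channel list were called above and 2 below, a share near that of protein-coding genes tested. The G protein subunit genes GNAO1 (87.6 ± 6.89 FPKM), GNAI1 (40.6 ± 3.06) and GNAI2 (35.9 ± 3.83) were highest. GNAI3 shares exonic bases with AMPD2 on the same strand (49.9 FPKM) and GNAZ with RSPH14 on the other strand (28.5). The values of GNAI3 and GNAZ are therefore uncertain. Of the channel genes through which somatostatin receptors act, KCNJ9 (5.76 ± 0.37) was called above, KCNJ3 (1.58 ± 0.461) neither (above without replicate 2, limma adjusted p = 0.0455), and KCNJ5 (0.14) and KCNJ6 (0.006) below; these 4 are named to complete the counts, after their values were seen. The arrestin and receptor kinase genes, which end receptor signalling, were all called above (6 of 6), where 70.6% of protein-coding genes tested were. The highest were GRK3 at 74.5 ± 3.07, GRK6 at 45.0 ± 2.68 and ARRB2 at 43.3 ± 0.548 FPKM.

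Genes that process peptide precursors were unequal. CPE, a carboxypeptidase gene, stood at 80.9 ± 4.92 FPKM, PAM, whose enzyme amidates the C terminus as VIP and PACAP require, at 57.9 ± 4.54, and SCG5, a chaperone gene of the convertase PCSK2, at 49.4 ± 7.5. The convertase genes themselves, named after their values were seen, were low: PCSK1 was called below 1 FPKM at 0.0787 ± 0.0581 and PCSK2 neither at 0.809 ± 0.222 (below without replicate 2, limma adjusted p = 0.0458). In the list, 4 of 6 were called above and 1 below, again near the share of protein-coding genes tested. Among peptidase genes, 3 of 6 were called above, THOP1 (47.4 ± 2.73), NLN (24.4 ± 1.24) and ECE1 (22.0 ± 1.71). The share among protein-coding genes tested, which leaves out genes listed at 0, was 70.6%. The peptidases DPP4, listed at 0, and MME, called neither (0.679 ± 0.328; below without replicate 3, limma adjusted p = 0.0257), were also named after their values were seen; both cleave peptides of these families.

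**Figure D4:**
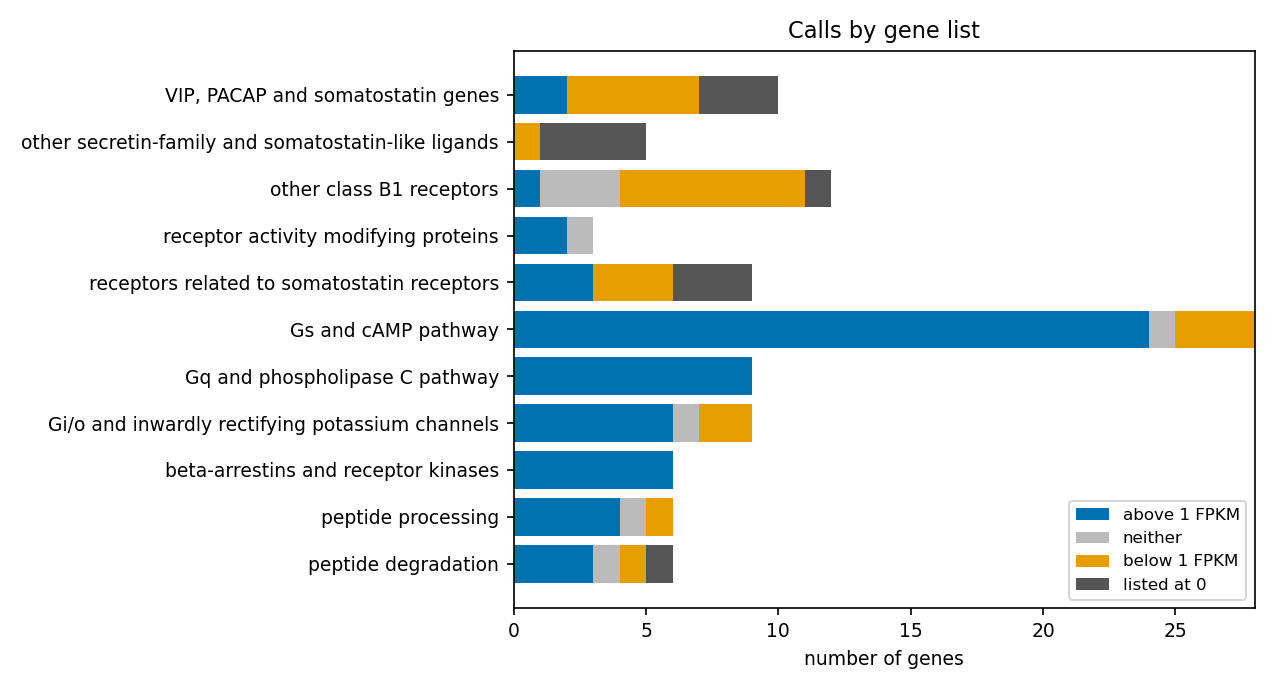
Number of genes in each list called above 1 FPKM, neither, below, or listed at 0. Of the 10 VIP, PACAP and somatostatin genes 2 were called above and 3 listed at 0. Of 12 other class B1 receptor genes 1 was called above and 1 listed at 0. Of 5 other ligand genes 0 were called above and 4 listed at 0. Of 9 genes related to somatostatin receptors 3 were called above and 3 listed at 0. In the Gs and cAMP list 24 of 28 were called above and in the Gq list 9 of 9. Among genes tested, 45.2% of all and 70.6% of protein-coding genes were called above, shares that leave out genes listed at 0.

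By distance over log2(FPKM + 0.1) in the 3 libraries, the genes of the other lists nearest to ADCYAP1R1 were NLN (distance 0.137) and RAPGEF4, a cAMP-activated exchange factor gene (0.253). Those nearest to VIP were ARRB1 (0.206) and CRTC3 (0.236), of 120 candidates. The distance compares levels over 3 libraries and carries no test. ARRB1 stood at 15.754, 11.534 and 14.052 FPKM, lowest in replicate 2 as VIP was; it shares 216 exonic bases with AP001972.2 on the other strand (18.4 FPKM).

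The label of the line was read against marker genes. All 6 noradrenergic neuroblastoma markers were called above 1 FPKM, among them HAND2 (454 FPKM, beside HAND2-AS1 on the other strand at 427), PHOX2A (381) and DBH (323). Immune markers summed to 0.466 to 0.919 FPKM per library, with 0 of 5 called above, 4 below and CD3E at 0. Of 6 Schwann cell and glial markers GFAP alone was called above (3.62 FPKM), and not without replicate 2 (limma adjusted p = 0.0846), with PMP2 at 0 and a summed level of 6.81 to 8.07; S100B (1.17) was called neither. Of 6 fibroblast and endothelial markers DCN (14.7), LUM (3.95) and COL1A1 (3.79) were called above, with CDH5 at 0 and a summed level of 20.4 to 27.3. In the list for pancreatic delta and neuroendocrine cells, CHGA (376) and NEUROD1 (1.74) were called above, INSM1 (0.00733), a neuroendocrine transcription factor gene named after its value was seen, was called below, PDX1 was at 0 and HHEX (0.827) was called neither; under TPM the counts were 1 above and 2 below. Their part in the levels of VIP and ADCYAP1R1 was not tested.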

How the data were processed

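The authors deposited FPKM values for 60660 Ensembl genes in 3 SH-SY5Y libraries. Per the submitters' processing notes, the tools were Cufflinks 2.2.1, TopHat2 2.1.1, FastQC 0.10.1 and bcl2fastq, and the build hg38; the annotation release and strand setting were not given in the sources used here. Of the identifiers, 57046 matched GENCODE 29 on the same assembly. Genes above 0 in at least 1 library with values in at least 2 were tested on log2(FPKM + 0.1) against 1 FPKM by limma 3.58.1 (R 4.3.3; an intercept-only model, two-sided, with calls at a Benjamini-Hochberg adjusted p below 0.05), a scale that understates the distance of low genes. Tested on simulated data with 31940 genes for this comparison, 79% of 100 genes 1 log2 away and 48% of 100 genes 0.5 log2 away were called on the right side, and 6% of 200 genes at the level were called. Of 12 planned pairs, 8 include a gene listed at 0 in at least 1 library and got no difference. Depth came from genes with 1 transcript of at least 600 bases, where 97.8%, 97.4% and 96.7% of low values lay within 0.1 of a whole read. The depths were chosen to fit these same values, so this closeness is partly built in. The chance level of 20% holds only for a depth fixed beforehand. Named genes were every member, the 3 highest of each other list, every gene of the ligand and receptor lists, overlapping genes and nearest genes; some of what this rule names is not reported here. The members and the 19 lists were chosen with earlier results of these data known. Planned protein comparisons were not run. Other steps ran in Python 3.11.15 (matplotlib 3.10.9, scipy 1.17.1, pandas 2.3.3, numpy 2.4.6).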

Additional observations from a re-analysis of the deposited data

How the results depend on the processing

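The 7 genes tested against 1 FPKM kept direction and call in 72 of 75 results under other pseudocounts (1 and 0.01), rescaling to TPM or by median ratios, levels of 0.5 and 5 FPKM, other filters and each library left out. The exceptions were all SSTR2, which turned to 0.45 at a level of 0.5 FPKM and lost its call without replicate 1 and without replicate 3. Part of the 75 results could not change direction. A gene below 1 FPKM is also below 5 FPKM, and a gene above 1 FPKM is above 0.5. The filters leave the log2 distance as it was, and the median-ratio factors were only 1.001 to 1.004. The count called below 1 FPKM was 8 with no filter on low values, since ADCYAP1, SSTR1 and SSTR5 then enter at 0, and 3 to 5 with a library left out; it was 3 without replicate 1, where SST leaves the test and SSTR2 loses its call. Leaving out the level changes, VIP ranged from 2.94 to 3.85 and ADCYAP1R1 from 3.72 to 4.65 (log2 distance). The distance of SST depended strongly on the pseudocount, from -5.46 at 0.01 to -0.95 at 1. TPM shifted every gene by -0.47, -0.54 and -0.46 log2 in replicates 1, 2 and 3 before the pseudocount, and low genes by less after it (SST from -3.10 to -3.18). The pair differences were positive in every library, which fixes their sign under these alternatives, but their size moved. VIPR1 over VIPR2 ranged from 0.10 to 0.45. ADCYAP1R1 over VIPR1 ranged from 4.36 to 6.49, ADCYAP1R1 over VIPR2 from 4.46 to 6.91 and SSTR2 over SSTR3 from 0.415 to 1.29. The last 3 pairs were lowest at a pseudocount of 1 and highest at 0.01. Depth limits SST, and on the shortest coding transcript VIPR2, whose values lie under 3 reads in some libraries. No paired analysis was possible because the series has 1 group, so replicate numbers pair no samples between groups; the gene pairs were compared within libraries.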
